A study of Mus musculus with 2 samples.

Results

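Oxidative phosphorylation is carried out in the inner mitochondrial membrane by complexes I, III and IV of the respiratory chain, which pass electrons to oxygen and pump protons, and by complex V, the ATP synthase, which uses the proton gradient to make ATP. Most subunits are encoded in the nucleus, made in the cytosol and imported, while a small core is encoded by mitochondrial DNA and translated inside the organelle, so that each of these complexes is built from transcripts of both genomes. Macrophages and lymphocytes shift between this pathway and glycolysis as they are activated. The genes described here were all listed genes whose symbol starts with Nduf, Uqcr, Cox4, Cox5, Cox6, Cox7, Cox8 or Atp5, or with mt-Nd, mt-Co, mt-Atp or mt-Cytb, without names holding -ps. This gave 109 of 55357 listed genes (28475 of which had a UMI), 96 nuclear and 13 mitochondrially encoded. By complex, 41 nuclear genes belonged to complex I, 8 to its assembly factors, 8 to complex III, 21 to complex IV (Ndufa4 and Ndufa4l2 counted there) and 18 to complex V. Of the mitochondrially encoded genes, 7 belonged to complex I, 1 to complex III, 3 to complex IV and 2 to complex V. A UMI was found for 105 of the 109.

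MC38, a colon carcinoma line of the mouse, was grown as tumours, and their live (7-AAD-negative), CD45-positive cells were sorted and their RNA counted by 3-prime single-cell sequencing. One library came from SPP1fl/fl-Lyz2-icre mice and one from SPP1fl/fl mice, the control. Both genotypes carried the floxed allele, and the icre is driven by the Lyz2 locus, which is active in macrophages, monocytes and neutrophils and not in lymphocytes. The number and age of the mice were not given in the sources used here. With 1 library per genotype no difference could be tested. The intervals are 95% intervals that cover the counting of UMIs only, neither the spread between mice nor that between cells. After filtering, 13915 Lyz2-icre and 8724 control cells remained, with medians of 6374 and 9379.5 UMIs per cell, and 43 barcode sequences occurred in both libraries. Cell types were set by marker gates, and 13 of them with at least 25 cells in each library are described. Macrophages, gated on C1q genes, were by far the most frequent, with 10266 Lyz2-icre and 5659 control cells. The targeted gene Spp1 stood at 3.43 CPM in Lyz2-icre and 675 CPM in control cells of the macrophage gate, against 701 CPM in Lyz2-icre and 925 CPM in control cells of the NK gate. Cd3e, one of the genes that set the T cell gates, was at 681 and 572 CPM in Lyz2-icre and control CD8 T cells. It was at 0.892 and 0.518 CPM in Lyz2-icre and control macrophages. C1qa, one of the genes that set the macrophage gate, was at 136 and 181 CPM in Lyz2-icre and control CD8 T cells. In Lyz2-icre and control macrophages it was at 5018 and 4763 CPM. Cells of the other gates had to hold fewer than 20 C1q UMIs per 10000. The levels of both genes thus follow the gates in part, and C1qa in CD8 T cells is no free measure of macrophage RNA. The collagen-high gate, fibroblasts or tumour cells, was at 22.4 and 16 CPM for Ptprc, the gene of CD45, in the Lyz2-icre and control libraries, against 434 and 459 CPM in macrophages of the same libraries, so these cells had little of the marker of the sort.

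The nuclear genes of the pathway are known for promoters that share binding motifs of NRF1 and of ETS factors such as GABP, and YY1. RefSeq windows (GRCm38.p6) of 250 bases before to 50 bases after the gene start were found for 74 of the 95 nuclear symbols, in 79 windows. The NRF1 letters, GCGCA followed directly by its reverse complement TGCGC and so the same on both strands, occurred in 7 of the 79 windows (8.86%) and in 0.971% of all 32851 windows. The ETS letters CCGGAAG, or CTTCCGG on the other strand, occurred in 17 (21.5%) and in 8.86% of all windows. The YY1 letters AAGATGGCG, also read on both strands, occurred in 8 (10.1%) and in 1.40% of all windows. These windows are shown because their genes are referred to below and hold these letters, Cox6a1 and Atp5k both the NRF1 and the ETS letters, and Uqcrh and Atp5e the ETS letters. The ETS match of Atp5k lies in the bases after the gene start, which are not printed. Each is the 250 bases before the gene start, 5′ to 3′ on the minus strand of GRCm38.p6, at chr5:115348959-115349208, chr5:108434400-108434649, chr4:116075071-116075320 and chr2:174464102-174464351, with NRF1 and ETS matches in capitals.
Cox6a1: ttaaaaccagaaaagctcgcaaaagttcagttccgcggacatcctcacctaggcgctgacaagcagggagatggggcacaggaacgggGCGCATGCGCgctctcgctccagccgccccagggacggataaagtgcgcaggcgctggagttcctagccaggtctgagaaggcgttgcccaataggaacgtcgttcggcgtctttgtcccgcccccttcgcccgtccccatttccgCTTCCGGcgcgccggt
Atp5k: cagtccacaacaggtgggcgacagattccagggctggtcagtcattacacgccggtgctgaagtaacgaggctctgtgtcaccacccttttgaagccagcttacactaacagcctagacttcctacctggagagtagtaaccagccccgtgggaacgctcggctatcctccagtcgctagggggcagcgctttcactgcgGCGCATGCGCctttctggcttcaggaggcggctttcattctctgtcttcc
Uqcrh: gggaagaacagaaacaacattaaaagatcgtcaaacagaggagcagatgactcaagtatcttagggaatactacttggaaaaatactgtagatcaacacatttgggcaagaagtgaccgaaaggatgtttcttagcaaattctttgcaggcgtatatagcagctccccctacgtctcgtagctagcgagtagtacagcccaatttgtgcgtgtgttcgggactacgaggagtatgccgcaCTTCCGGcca
Atp5e: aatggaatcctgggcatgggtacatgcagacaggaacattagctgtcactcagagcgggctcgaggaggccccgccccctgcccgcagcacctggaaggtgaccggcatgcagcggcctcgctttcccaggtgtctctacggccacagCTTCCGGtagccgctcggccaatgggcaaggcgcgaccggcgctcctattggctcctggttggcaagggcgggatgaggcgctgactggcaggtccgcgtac
A match is a string of letters and not a measured binding site.

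The mitochondrially encoded genes have near-identical nuclear copies, which bears on what was counted. On chromosome 1 (GRCm38, minus strand) the annotation lists unprocessed pseudogenes of 7 of them side by side, from Gm28439, a copy of mt-Nd4 starting at 24611535, to Gm29216, a copy of mt-Co1 ending at 24616197. Of all stretches of 91 bases in the transcript, 99.5% were shared with an annotated copy for mt-Co2, 99.9% for mt-Co3, 99.5% for mt-Atp6, 97.7% for mt-Nd3, 98.6% for mt-Nd4l, 61.0% for mt-Nd4 and 33.1% for mt-Co1. The last 90 shared bases of mt-Co2 (chrM:7013-7696, transcript positions 592 to 681) and of its copy Gm28661 (chr1:24614885-24615565) are shown because they are alike base for base, so that a read from either place matches both.
mt-Co2: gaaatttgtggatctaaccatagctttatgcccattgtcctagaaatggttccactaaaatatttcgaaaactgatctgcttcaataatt
Gm28661: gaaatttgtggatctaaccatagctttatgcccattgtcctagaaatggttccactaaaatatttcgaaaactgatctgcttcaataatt
Counting that keeps only uniquely placed reads can lose such reads. The copies themselves held few UMIs, Gm28661 78 in the Lyz2-icre and 114 in the control library. The levels of the 5 genes with nearly all shared stretches (mt-Co2, mt-Co3, mt-Atp6, mt-Nd3 and mt-Nd4l) are therefore uncertain. Together they gave 9406 of 434229 mitochondrially encoded UMIs of Lyz2-icre macrophages and 10688 of 544577 in control macrophages. Of 91 nuclear members with a transcript in the annotation, 12 shared any such stretch in their last 400 bases with another gene and 2, Atp5l and Atp5o, shared most of them, so their counts are uncertain as well. Atp5o is listed under 2 gene identifiers, which is why 96 genes have 95 symbols, and one of these overlaps Donson.

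The first comparison asked how the summed transcripts of each genome stood in macrophages of SPP1fl/fl-Lyz2-icre mice against those of SPP1fl/fl mice. The nuclear sum was slightly higher and the mitochondrially encoded sum clearly lower in the Lyz2-icre library. Summed over the 96 nuclear genes, the level was 18855 CPM in Lyz2-icre and 17681 CPM in control cells (CPM, UMIs per 1000000 UMIs of the gate), a ratio of 1.07 (1.06 to 1.07). Summed over the 13 mitochondrially encoded genes, it was 5779 CPM in Lyz2-icre and 9099 CPM in control cells, a ratio of 0.635 (0.633 to 0.638), and 0.634 (0.631 to 0.636) without the 5 genes that have near-full nuclear copies. For each nuclear UMI of the pathway there were thus 0.307 mitochondrially encoded UMIs in Lyz2-icre and 0.515 in control macrophages. In single macrophages drawn down to 2000 UMIs, the median share of mitochondrially encoded members was 0.50% (quartiles 0.350% and 0.750%, 9195 cells) in Lyz2-icre and 0.850% (0.60% and 1.10%, 5319 cells) in control cells, against 0.547% and 0.864% in Lyz2-icre and control cells at their full depth. The median share of nuclear members was 1.85% and 1.70% in the drawn-down Lyz2-icre and control cells.

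Other measures of the libraries moved with these sums. The 2 mitochondrial ribosomal RNAs, which are no members, were at 2351 CPM in Lyz2-icre and 8075 CPM in control cells of the macrophage gate, a ratio of 0.291 (0.290 to 0.293), lower than for the protein-coding genes of the same genome. Cytosolic ribosomal protein genes were at 13.8% of UMIs in Lyz2-icre and 13.3% in control macrophages, a ratio of 1.04 (1.04 to 1.04). Over all kept cells, mitochondrially encoded RNA of every kind made up 0.827% of UMIs in the Lyz2-icre and 1.72% in the control library, and the limit of 15% on that share had removed 22 Lyz2-icre and 429 control barcodes. The control macrophages were also deeper, with medians of 6812.5 UMIs in Lyz2-icre and 10072 in control cells. The part of these library differences in the ratios was not tested, and with 1 library each, genotype and library cannot be told apart.

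**Figure D1:**
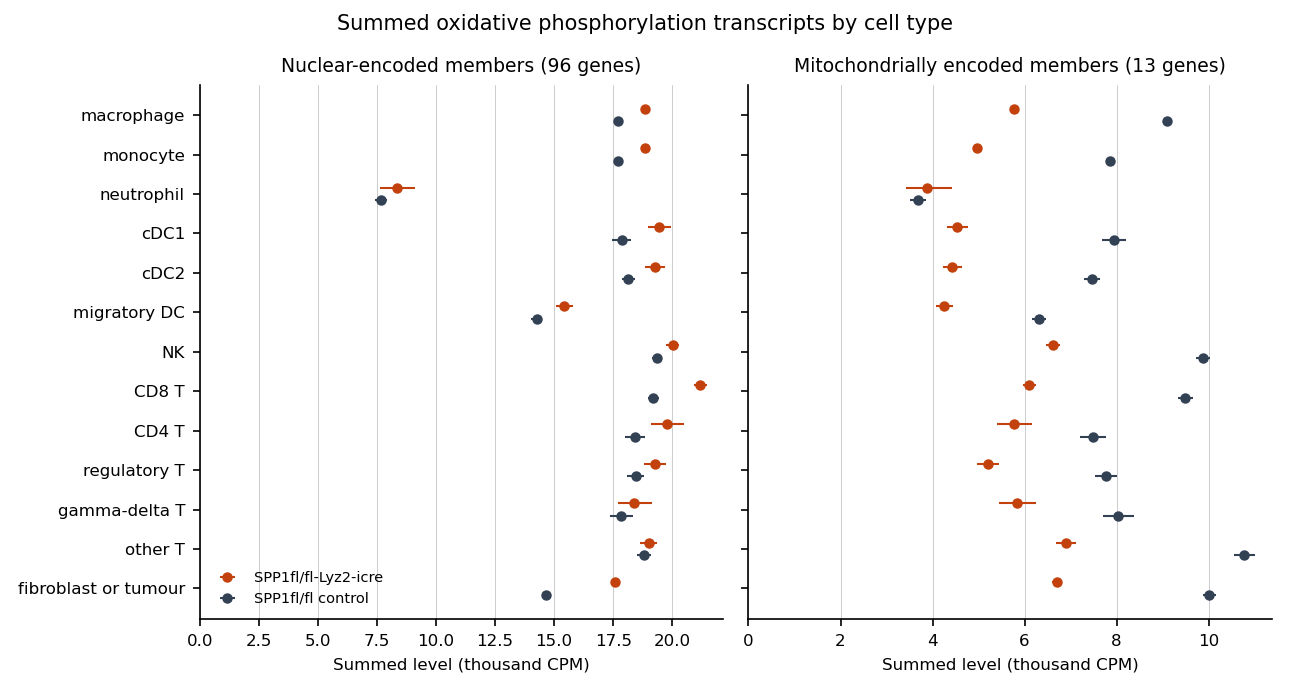
Summed levels of the 96 nuclear (left) and 13 mitochondrially encoded members (right) in units of 1000 CPM (x axis, from 0) in 13 cell types (y axis), one point per library, orange SPP1fl/fl-Lyz2-icre and dark SPP1fl/fl control, with bars for the 95% Poisson interval of the count (hidden by the point where short). The orange points lie right of the dark ones in the nuclear panel and left of them in the mitochondrial panel, except in neutrophils, where the mitochondrial points lie close together.

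Gene by gene in macrophages, 79 of the 96 nuclear members averaged at least 10 CPM over both libraries and were compared, the other 17 being too low (Cox4i2, Cox6a2, Cox6b2, Cox6c2, Cox7a1, Cox7b2, Cox8b, Cox8c, Ndufa11b, Ndufa4l2, Ndufaf1, Ndufaf5, Ndufaf6, Ndufb11b, Ndufb4c, Ndufs6b, and one of the 2 identifiers of Atp5o). Of these 79, 56 were higher and 23 lower in the Lyz2-icre library, where 46.2% of all 7774 genes passing the same filter were higher and 53.8% lower. The differences were small. With 5 CPM added to both values, the median log2 ratio was 0.09 (quartiles -0.02 and 0.18) against -0.01 over all genes, and only 3 members lay past 0.32 on the log2 scale either way, which is 25% higher or 20% lower. Cox7b and Ndufv3 were higher by that much (2 of 79, against 2.08% of all genes) and Ndufa4 lower (1 of 79, against 3.9% of all genes), so the count past this limit was near that of other genes.

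Complex I, NADH dehydrogenase, feeds electrons into the chain. Its 41 nuclear genes summed to 5479 CPM in Lyz2-icre and 5145 CPM in control cells, a ratio of 1.06 (1.06 to 1.07). The excess lay in the accessory subunits, mostly small proteins around the core, taken here as the 34 listed genes outside the core. Some of these, such as Ndufs6b, Ndufb4c and Ndufa11b, had no protein-coding transcript in GENCODE vM21. The 34 summed to 4847 CPM in Lyz2-icre and 4501 CPM in control cells (1.08, 1.07 to 1.08), with 25 of the 30 that passed the filter higher. The 7 catalytic core subunits summed to 632 CPM in Lyz2-icre and 644 CPM in control cells (0.982, 0.969 to 0.996), with 2 higher and 5 lower. The highest nuclear gene of the complex, the accessory subunit Ndufb9, was at 346 CPM in Lyz2-icre and 309 CPM in control cells (log2 ratio 0.16). Among accessory subunits, Ndufv3 (chr17:31520115-31531331, GRCm38), which sits in the NADH-oxidising arm, was at 196 CPM in Lyz2-icre and 151 CPM in control cells (log2 ratio 0.36). Ndufa6 had 159 and 130.1 CPM (log2 ratio 0.28) in Lyz2-icre and control cells, Ndufc1 171 and 143 CPM (log2 ratio 0.25), and Ndufa3 95.9 and 79.7 CPM (log2 ratio 0.25). On the lower side stood Ndufs3 and Ndufv2, core subunits, with 51.6 and 56.7 CPM (log2 ratio -0.12) and 103 and 112 CPM (log2 ratio -0.12) in Lyz2-icre and control cells. Ndufa13, an accessory subunit also known as Grim19, had 274 and 297 CPM (log2 ratio -0.11). Many of the 3-prime stretches of Ndufs3 (46.8%) are shared with a processed pseudogene, so its level is less sure. The assembly factors, Ndufaf1 to Ndufaf8, help build the complex and are not part of it. They were low, with a sum of 180.2 CPM in Lyz2-icre and 170.4 CPM in control cells (1.06, 1.03 to 1.09), and 3 of the 5 that passed were higher. Ndufaf8, the highest of them, was at 71.6 CPM in Lyz2-icre and 63.3 CPM in control cells (log2 ratio 0.17). In the other types with at least 50 cells in each library the core ratio lay below the accessory ratio except in monocytes, and the difference was not tested. The intervals of core and accessory subunits lay apart in macrophages and in CD8 T cells, with 0.912 (0.826 to 1.01) for the core and 1.13 (1.09 to 1.17) for the accessory subunits, and overlapped in the remaining types. Monocytes had 1.07 (0.999 to 1.14) for the core and 1.04 (1.02 to 1.07) for the accessory subunits, NK cells 0.946 (0.855 to 1.05) and 1.03 (0.993 to 1.07), and fibroblasts or tumour cells 1.14 (1.06 to 1.22) and 1.22 (1.18 to 1.2504).

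Complex III, cytochrome bc1, passes electrons from ubiquinol to cytochrome c. Its 8 nuclear members were grouped by size of the protein. The 5 small subunits summed to 1667 CPM in Lyz2-icre and 1521 CPM in control cells, a ratio of 1.10 (1.09 to 1.11), with 4 of 5 higher. The core proteins Uqcrc1 and Uqcrc2 and the Rieske iron-sulphur protein Uqcrfs1 summed to 317 CPM in Lyz2-icre and 334 CPM in control cells, a ratio of 0.949 (0.931 to 0.967), with none of the 3 higher. The highest gene, the hinge protein Uqcrh, was at 535 CPM in Lyz2-icre and 507 CPM in control cells (log2 ratio 0.08). Uqcr10, a small subunit, was at 283 CPM in Lyz2-icre and 234 CPM in control cells (log2 ratio 0.27). Uqcrc2 (chr7:120635176-120659524) had 75.2 and 83.7 CPM (log2 ratio -0.15) in Lyz2-icre and control cells and Uqcrc1 90.8 and 97.3 CPM (log2 ratio -0.10). The cytochrome c gene Cycs, the carrier that takes the electrons on, was at 172 CPM in Lyz2-icre and 149 CPM in control macrophages. Cyc1, the gene of cytochrome c1, also belongs to complex III but is no member by its symbol. Cycs and Cyc1 were both higher in Lyz2-icre macrophages (median log2 ratio 0.11), so in macrophages the lower ratio of the larger proteins did not extend to Cyc1. Elsewhere Cyc1 could be lower, with 93.1 and 117 CPM in Lyz2-icre and control CD8 T cells and 92.2 and 110 CPM in NK cells.

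Complex IV, cytochrome c oxidase, reduces oxygen, and its nuclear subunits surround a mitochondrially encoded core. The 21 nuclear genes summed to 5644 CPM in Lyz2-icre and 5187 CPM in control cells, with the highest nuclear ratio of any complex in macrophages, 1.09 (1.08 to 1.09). Of the 12 that passed the filter 10 were higher. Cox4i1, the regulatory subunit and the highest nuclear member, was at 1180.4 CPM in Lyz2-icre and 1118 CPM in control cells (log2 ratio 0.08). Cox8a was at 968 CPM in Lyz2-icre and 810.2 CPM in control cells (log2 ratio 0.26) and Cox6a1, whose promoter is printed above, at 235 CPM in Lyz2-icre and 194 CPM in control cells (log2 ratio 0.27). Cox7b (chrX:106015700-106022450, GRCm38) was at 310.4 CPM in Lyz2-icre and 235 CPM in control cells (log2 ratio 0.39), the highest ratio of the nuclear members that passed. The exceptions were Cox7a2l, a factor that joins complexes III and IV into supercomplexes, at 452 CPM in Lyz2-icre and 489 CPM in control cells (log2 ratio -0.11), and Ndufa4 (chr6:11900292-11907497), at 120.5 CPM in Lyz2-icre and 162 CPM in control cells (log2 ratio -0.41), the lowest ratio of the nuclear members that passed. Ndufa4 was first assigned to complex I and is a subunit of complex IV. Most tissue-restricted forms were at or near 0 in macrophages, Cox7b2 and Cox8c with no UMI and Cox8b with 1 UMI in all. No UMI in the gate of 75137685 and 59852752 UMIs in the Lyz2-icre and control libraries sets a limit of 3 counts, far under 1 CPM. Cox6a2, the heart and muscle form, had 1.41 and 2.44 CPM in Lyz2-icre and control macrophages beside 235 and 194 CPM for Cox6a1. Cox7a1, also a muscle form, had 7.36 and 6.05 CPM beside 371 and 322 CPM for Cox7a2, and Cox6b2, known from testis, had 4.47 and 5.40 CPM beside 401 and 394 CPM for Cox6b1.

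A pair of low isoforms known from the response to low oxygen, Ndufa4l2 and Cox4i2, lay under the filter. Ndufa4l2 had 360 UMIs in Lyz2-icre and 67 UMIs in control macrophages (4.79 and 1.12 CPM, ratio 4.28, 3.29 to 5.64). Cox4i2 had 695 and 222 UMIs in Lyz2-icre and control macrophages (9.25 and 3.71 CPM, ratio 2.49, 2.14 to 2.91). The direction of Ndufa4l2 was not the same in both sexes, with a ratio of 9.57 (6.25 to 15.4) in female and 0.379 (0.194 to 0.703) in male macrophages. Both genes stayed far under their partners Ndufa4 and Cox4i1. In macrophages of at least 2000 UMIs with 10 or more Arg1 UMIs per 10000, Cox4i2 was at 14.4 and 7.51 CPM in the Lyz2-icre and control libraries, and in those with no Arg1 UMI at 5.71 and 2.17 CPM. Ndufa4l2 was at 11.4 and 4.04 CPM in the Arg1-high and at 0.444 and 0.0461 CPM in the Arg1-free macrophages of the Lyz2-icre and control libraries. The Arg1-free values rest on 8 UMIs in Lyz2-icre and 1 UMI in control cells, with a ratio interval of 1.29 to 427, so their ratio is not known.

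Complex V, the ATP synthase, had the smallest nuclear ratio of the complexes, 1.05 (1.04 to 1.05), from 5567 CPM in Lyz2-icre and 5323 CPM in control cells over 18 genes. The catalytic F1 head (Atp5a1, Atp5b, Atp5c1, Atp5d and Atp5e) summed to 2414 CPM in Lyz2-icre and 2327 CPM in control cells (1.04, 1.03 to 1.04). The c ring, the rotor turned by protons and encoded by Atp5g1, Atp5g2 and Atp5g3, summed to 728 CPM in Lyz2-icre and 656 CPM in control cells (1.11, 1.10 to 1.12). Atp5g1 had 407 and 357 CPM in Lyz2-icre and control macrophages, Atp5g3 307 and 284 CPM and Atp5g2 14.7 and 15.4 CPM, although all encode the same mature protein. The peripheral stalk, which holds the head still, summed to 1539 CPM in Lyz2-icre and 1526 CPM in control cells (1.01, 0.9996 to 1.02), the interval just holding 1. Its subunit b, Atp5pb (chr3:105942698-105960099), was at 416 CPM in Lyz2-icre and 479 CPM in control cells (log2 ratio -0.20). The small membrane subunits summed to 886 CPM in Lyz2-icre and 813 CPM in control cells (1.09, 1.08 to 1.10). The highest gene of the complex, the small F1 subunit Atp5e, was at 616 CPM in Lyz2-icre and 543 CPM in control cells (log2 ratio 0.18).

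**Figure D2:**
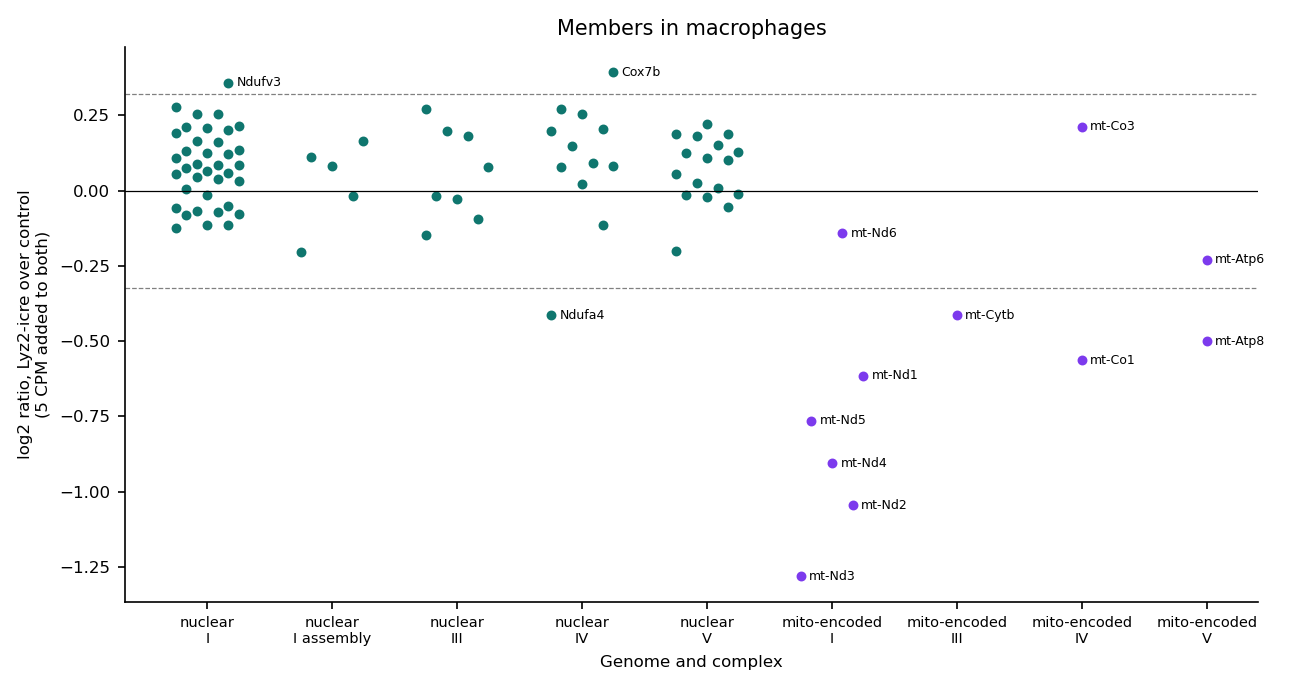
Log2 ratio of Lyz2-icre over control (y axis, 5 CPM added to both) of each member that passed the filter in macrophages, by genome and complex (x axis), 79 nuclear members in green and 11 mitochondrially encoded in purple, spread sideways for legibility, with dashed lines at 0.32 and -0.32, the limit for a count. The nuclear members lie close to 0, with Cox7b, Ndufv3 and Ndufa4 past the lines, while the mitochondrially encoded members lie below 0 except mt-Co3.

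Among the mitochondrially encoded members in macrophages, 11 of 13 passed the filter, 10 were lower and 8 of them past the limit of -0.32, against 53.8% and 3.9% of all genes. They differed among themselves by complex. The complex I genes summed to 2961 CPM in Lyz2-icre and 5269.5 CPM in control cells, a ratio of 0.562 (0.559 to 0.565). Of these, mt-Nd2 had 693 and 1436 CPM (log2 ratio -1.05) in Lyz2-icre and control macrophages, mt-Nd4 834 and 1567 CPM (log2 ratio -0.91), mt-Nd5 271 and 464 CPM (log2 ratio -0.76) and mt-Nd1 1109.5 and 1702 CPM (log2 ratio -0.61). These subunits form the proton-pumping membrane arm of complex I. A pair of short genes of the complex are uncertain or low, mt-Nd3 with 26.2 and 70.8 CPM (log2 ratio -1.28) and mt-Nd4l with 316 and 300 UMIs in Lyz2-icre and control macrophages. The lone member on the light strand, mt-Nd6, had 22.5 and 25.3 CPM (log2 ratio -0.14). For complex III, mt-Cytb, which encodes cytochrome b, had the highest count of all members, nuclear ones included, at 2069.6 CPM in Lyz2-icre and 2758 CPM in control cells (log2 ratio -0.41), a ratio of 0.751 (0.745 to 0.756). Its rank holds among members whose reads could be counted, since the levels of mt-Co1, mt-Co2, mt-Co3 and mt-Atp6 are uncertain. For complex IV, mt-Co1, the catalytic subunit, was at 615 CPM in Lyz2-icre and 911 CPM in control cells (log2 ratio -0.56). Its partners were far lower in counts, mt-Co3 with 29.0 and 24.3 CPM (log2 ratio 0.21) and mt-Co2 with 8.37 and 10.2 CPM in Lyz2-icre and control macrophages, both with full nuclear copies, and mt-Co3 was the one mitochondrially encoded member that was higher. For complex V, mt-Atp8 had 39.5 and 57.9 CPM (log2 ratio -0.50) and mt-Atp6, which overlaps it on one transcript, 57.4 and 68.2 CPM (log2 ratio -0.23). A 3-prime count gives each RNA molecule one tag whatever its length, so levels are compared between genes without dividing by length.

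Across the 13 cell types, the nuclear sum was higher in the Lyz2-icre library in every type, with ratios from 1.01 (0.987 to 1.04) in T cells outside the other gates to 1.2 (1.18 to 1.22) in fibroblasts or tumour cells. The interval held 1 in neutrophils, gamma-delta T cells and the other T cells. The mitochondrially encoded sum was lower in every type but neutrophils, with ratios from 0.571 (0.538 to 0.607) in type 1 conventional dendritic cells (cDC1) to 0.772 (0.716 to 0.833) in CD4 T cells. Macrophages had 0.635, and the values of 3 further gates within this range are given next. CD8 T cells were at 6100.2 CPM in Lyz2-icre and 9488 CPM in control cells (0.643, 0.625 to 0.662), NK cells at 6612 CPM in Lyz2-icre and 9868 CPM in control cells (0.670, 0.651 to 0.689), and fibroblasts or tumour cells at 6698 CPM in Lyz2-icre and 10013 CPM in control cells (0.669, 0.655 to 0.683). In neutrophils the sum was 3888 CPM in Lyz2-icre and 3681 CPM in control cells (1.06, 0.919 to 1.21), from 240 and 1736 UMIs in 54 Lyz2-icre and 157 control cells. The share in the median neutrophil was 0.0603% in Lyz2-icre and 0.112% in control cells, lower in the Lyz2-icre library as in the other types. The pooled level lay far above that of the median cell and did not have its direction. The cell types share their library and are not replicates of the genotype.

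The order of the mitochondrially encoded genes seen in macrophages recurred in gates outside the myeloid lineage. The highest, mt-Cytb, had 2039.5 and 2578 CPM (ratio 0.791, 0.751 to 0.833) in Lyz2-icre and control CD8 T cells, 2306 and 2779 CPM (ratio 0.830, 0.789 to 0.873) in NK cells and 2654 and 3405 CPM (ratio 0.779, 0.753 to 0.807) in fibroblasts or tumour cells. The complex I gene mt-Nd2 was lower by more, with 831 and 1643 CPM (ratio 0.506, 0.469 to 0.545), 829 and 1589 CPM (ratio 0.522, 0.482 to 0.564) and 671 and 1377 CPM (ratio 0.487, 0.457 to 0.519) in the same gates of the Lyz2-icre and control libraries. The intervals of mt-Nd2 and mt-Cytb did not overlap in any of these 3 gates. For mt-Co1 the values were 794 and 1112 CPM (ratio 0.714, 0.658 to 0.775), 829 and 1109 CPM (ratio 0.748, 0.688 to 0.812) and 794 and 1131 CPM (ratio 0.702, 0.659 to 0.747). The light-strand gene mt-Nd6 had 29.4 and 36.1 CPM (ratio 0.812, 0.512 to 1.28) in CD8 T cells and 27.8 and 29.5 CPM (ratio 0.943, 0.569 to 1.53) in NK cells of the Lyz2-icre and control libraries, with wide intervals from few UMIs.

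The same cell types lay at both ends of the order by nuclear sum in the 2 libraries, and the middle differed. The other T cells, for example, ranked 7 in Lyz2-icre and 3 in control, and cDC1 4 and 7. Neutrophils, which make most of their ATP by glycolysis, had the lowest sum, 8344 CPM in Lyz2-icre and 7667 CPM in control cells. Migratory dendritic cells followed with 15419 CPM in Lyz2-icre and 14258 CPM in control cells and, in the control library only slightly above them, fibroblasts or tumour cells with 17581 CPM in Lyz2-icre and 14649.6 CPM in control cells. CD8 T cells and NK cells were among the highest, at 21185 CPM in Lyz2-icre and 19198 CPM in control cells and 20008 CPM in Lyz2-icre and 19348 CPM in control cells. Between them and the low group, macrophages (18855 CPM in Lyz2-icre and 17681 CPM in control cells), monocytes, conventional dendritic cells and the remaining T cell gates lay between 18391 and 19788 CPM in Lyz2-icre and between 17681 and 18788 CPM in control cells, several with overlapping intervals. By mitochondrially encoded sum, the other T cells, fibroblasts or tumour cells and NK cells led in both libraries, at 6895, 6698 and 6612 CPM in Lyz2-icre and 10770.2, 10013 and 9868 CPM in control cells. Fibroblasts or tumour cells had the most mitochondrially encoded UMIs per nuclear UMI outside neutrophils, 0.381 in Lyz2-icre and 0.683 in control cells, and cDC2 among the fewest, 0.230 and 0.411 in Lyz2-icre and control cells.

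**Figure D3:**
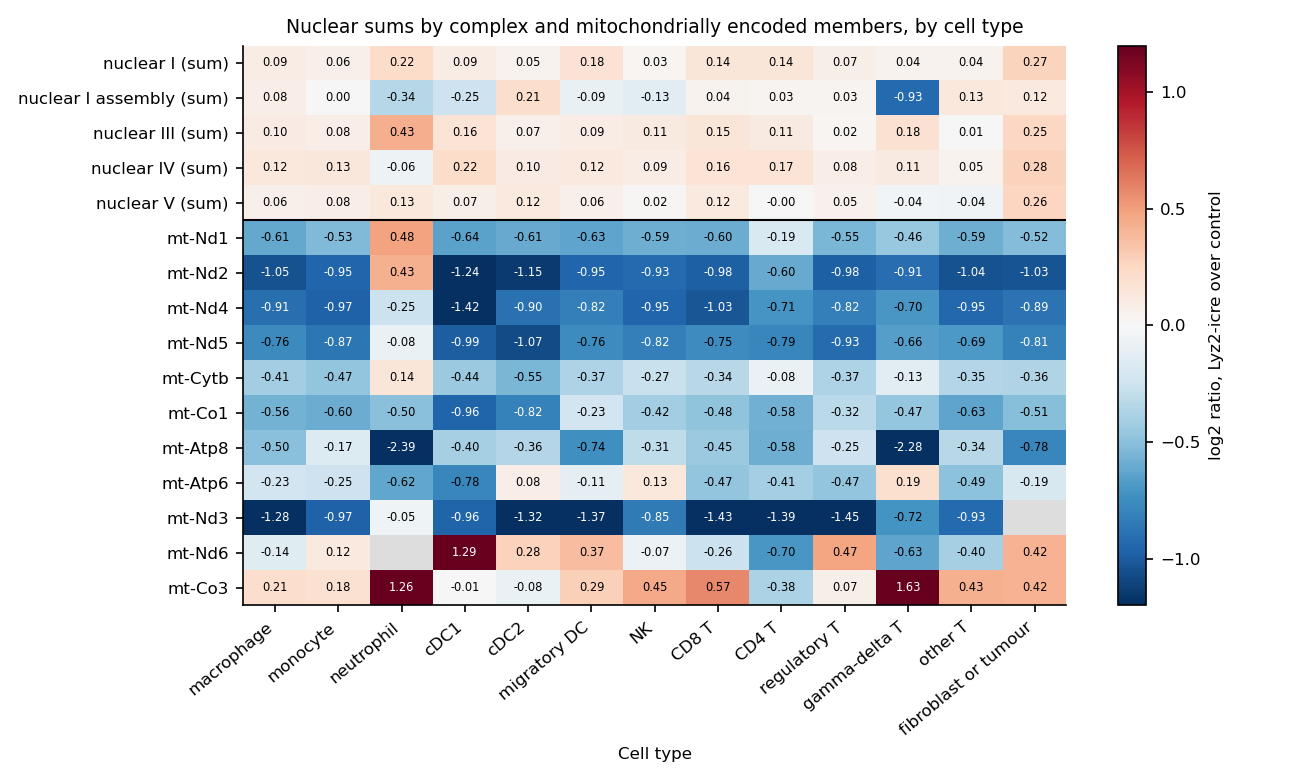
Log2 ratio of Lyz2-icre over control (colour and printed value) of the nuclear sums by complex (5 upper bands) and of the mitochondrially encoded members (11 lower bands, 5 CPM added to both) in 13 cell types, grey where a gene did not pass the filter in that type. Colours stop at -1.2 and 1.2. The lower bands of mt-Nd1 to mt-Co1 are blue in nearly all columns but that of neutrophils, the upper bands pale red, mt-Co3 red in most columns and mt-Nd6 mixed.

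In the 10 types with at least 50 cells in each library, 71 nuclear members passed the filter in all, 11 were higher in all 10 and 3 lower in all 10. Over all 4115 genes that passed in every type, 2.48% were higher and 2.14% lower in all 10. The 11 were Ndufa7, Ndufb5, Ndufb7 and Ndufc1 of complex I, Uqcr10 and Uqcrh of complex III, Cox6c of complex IV, and Atp5d, Atp5e, Atp5k and Atp5mpl of complex V. The promoters of Atp5k, Uqcrh and Atp5e are among those printed above. The log2 ratio of Ndufc1 lay between 0.14 in cDC2 and 1.86 in neutrophils, that of Uqcr10 between 0.16 and 1.15, also in neutrophils, and that of Cox6c between 0.12 and 0.65 in fibroblasts or tumour cells. The 3 lower in all were Uqcrc2 (-0.62 to -0.13), Cox7a2l (-0.69 to -0.09) and Atp5pb (-0.68 to -0.06). Of the 9 mitochondrially encoded members that passed in all 10 types, mt-Nd4, mt-Nd5, mt-Co1 and mt-Atp8 were lower in all 10, and mt-Nd1, mt-Nd2 and mt-Cytb in all but neutrophils. Against these, mt-Co3 was higher in 9 of the 10, cDC2 being the exception, with a median log2 ratio of 0.35, on few UMIs outside macrophages.

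Fibroblasts or tumour cells had the broadest nuclear difference. Of 81 nuclear members that passed, 74 were higher in the Lyz2-icre library (43.5% of all genes) and 30 past the log2 limit of 0.32 (11.4% of all genes), none was past -0.32 (17.6% of all genes), and the median log2 ratio was 0.25 against -0.04 over all genes. Cox6c and Ndufs5, small subunits of complexes IV and I, led with Cox6c 324 and 204 CPM (ratio 1.59, 1.41 to 1.79) and Ndufs5 133 and 85.9 CPM (ratio 1.55, 1.29 to 1.88) in Lyz2-icre and control cells. At the other end stood Cox7a2l 339.5 and 407 CPM (ratio 0.835, 0.756 to 0.922) and Uqcrc2 92.3 and 101 CPM (ratio 0.910, 0.747 to 1.11). The gate held 213 Lyz2-icre and 152 control cells and can mix fibroblasts with tumour cells in different proportions, which was not tested. In CD8 T cells, 60 of 82 nuclear members were higher (43.9% of all genes) and 22 lower (56.1%). Past the same limits, 9 were higher (12.4%) and 3 lower (20.6%), and the median log2 ratio was 0.11 against -0.05. Among the extremes were Ndufa6 198 and 135 CPM (ratio 1.46, 1.2 to 1.78) and Atp5j 495 and 357 CPM (ratio 1.39, 1.23 to 1.57) on the higher side, the second a stalk subunit of the synthase, and Ndufs3 46.1 and 60.0 CPM (ratio 0.769, 0.537 to 1.09) on the lower, in Lyz2-icre and control cells. 

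In NK cells, 52 of 81 were higher (41.8%) and 29 lower (58.2%), 3 past the limit each way (9.89% and 21.0% of all genes). The extremes were Atp5l 109 and 79.2 CPM (ratio 1.38, 1.06 to 1.79), Ndufb2 90.3 and 70.6 CPM (ratio 1.28, 0.960 to 1.70), Ndufa9 62.5 and 88.4 CPM (ratio 0.707, 0.517 to 0.957) and Atp5pb 439 and 545 CPM (ratio 0.806, 0.718 to 0.905) in Lyz2-icre and control cells. In monocytes they were Ndufa6 194 and 148 CPM (ratio 1.31, 1.15 to 1.49), Cox8a 1000.1 and 774 CPM (ratio 1.29, 1.22 to 1.37), Ndufa13 243 and 299 CPM (ratio 0.814, 0.733 to 0.904) and Uqcrc2 70.2 and 83.5 CPM (ratio 0.841, 0.689 to 1.02). In the other T cells they were Ndufs5 95.3 and 62.4 CPM (ratio 1.53, 1.02 to 2.28), Ndufa6 182 and 126 CPM (ratio 1.44, 1.09 to 1.91), Ndufa5 71.9 and 109 CPM (ratio 0.659, 0.443 to 0.966) and Ndufs3 44.9 and 66.0 CPM (ratio 0.681, 0.407 to 1.11). Several of these intervals hold 1 or come near it, and the levels of Atp5l, Ndufs5 and Ndufs3 are less sure because of shared stretches.

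Members with transcripts under 1000 bases had higher ratios than those of 1000 to 4000 bases, and genes outside the pathway showed this too. By the longest coding transcript in GENCODE vM21, 45 nuclear members that passed in macrophages were under 1000 bases. Of these, 88.9% were higher in the Lyz2-icre library, with a median log2 ratio of 0.11, against 77.6% of other genes under 1000 bases. The 23 members of 1000 to 2000 bases had 43.5% higher and a median of -0.02, against 55.6% higher among other genes of that length. The 8 members of 2000 to 4000 bases had a median of -0.01 and the 2 above that length 0.20, so the members did not fall steadily with length. Among genes that are no members the medians fell from class to class, with 0.10 under 1000 bases (419 genes), 0.02 at 1000 to 2000 (1577), -0.01 at 2000 to 4000 (2867) and -0.04 above (2612). In CD8 T cells the members had medians of 0.17, -0.09, 0.03 and 0.27 from the shortest class to the longest, the last again of 2 members. The other genes under 1000 bases had 0.13, and in NK cells the members and the other genes under 1000 bases had 0.10 and 0.08. In fibroblasts or tumour cells the values were 0.31 for these members and 0.18 for the others, with the members above genes of their length. A length was found for 98.7% of the members and 97.3% of the other genes that passed in macrophages. The part of length in the nuclear ratios was not tested further.

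The macrophage ratios depended on the depth of the cell at the low end. In macrophages of 500 to 2000 UMIs the nuclear ratio was 1.38 and the mitochondrial ratio 0.457, and at 2000 to 4000 UMIs they were 1.24 and 0.312. At 8000 to 16000 UMIs they were 1.07 (1.06 to 1.07) and 0.634 (0.630 to 0.637), and above that 1.07 and 0.632. The shallowest cells carried the most mitochondrially encoded RNA, 16188 CPM in Lyz2-icre and 35398 CPM in control cells, and the fewest ribosomal protein UMIs, 9.83% and 7.41% in Lyz2-icre and control cells. Among macrophages in 17 Leiden clusters with at least 50 cells of each library, the mitochondrial ratio was below 1 in all 17 (0.558 to 0.783) and the nuclear ratio above 1 in 16 (0.976 to 1.30). By state, among macrophages of at least 2000 UMIs, the nuclear sum was 19449.5 CPM in Lyz2-icre and 18649.6 CPM in control macrophages with at least 10 UMIs per 10000 of the cycling genes Mki67, Top2a, Birc5 and Cdk1, against 18481 and 17126 CPM in those with none. Arg1-high macrophages had a lower nuclear sum than those with no Arg1 UMI, 17964 against 19769 CPM in the Lyz2-icre and 16942 against 18003 CPM in the control library. Il1b-high macrophages were likewise lower than Il1b-free ones, 18348 against 19646 CPM in the Lyz2-icre and 17186 against 18673 CPM in the control library. Cxcl9-high ones were higher, 19609.6 against 18433 CPM in the Lyz2-icre and 18278 against 17511 CPM in the control library.

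**Figure D4:**
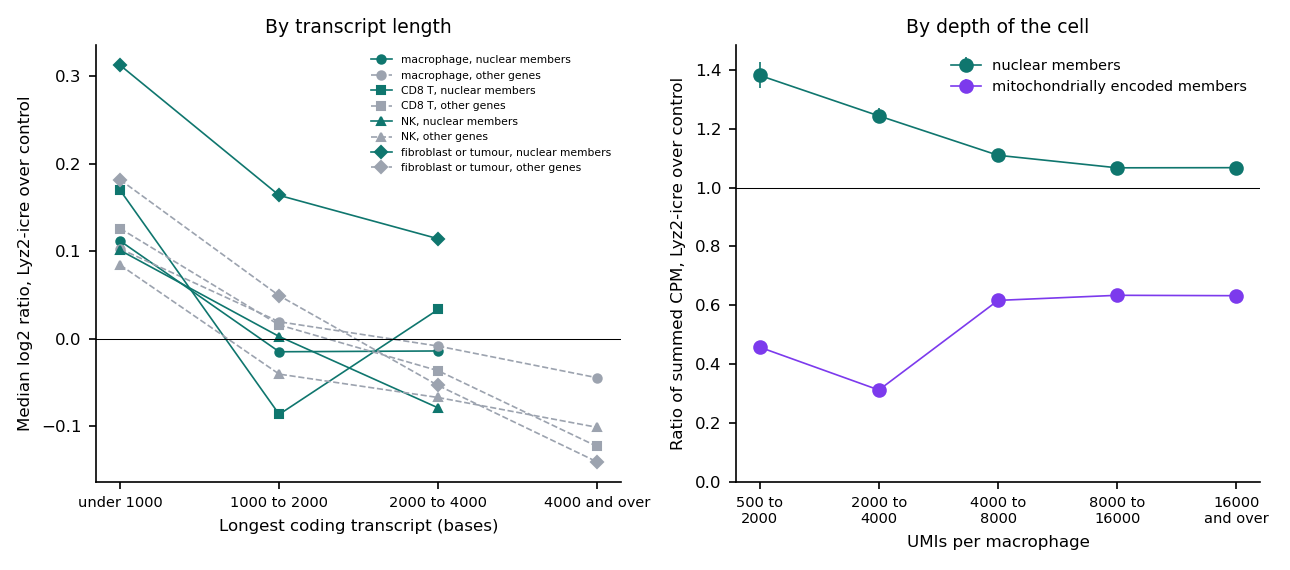
Left, median log2 ratio of Lyz2-icre over control (y axis) by length class of the longest coding transcript in bases (x axis) in 4 cell types, green for nuclear members (classes with at least 5 of them) and grey for other genes. Right, ratio of summed CPM in macrophages (y axis, from 0) by UMIs of the cell (x axis), green for nuclear and purple for mitochondrially encoded members, with 95% counting intervals. Of the classes shown, transcripts under 1000 bases have the highest medians in both kinds of gene, and the ratios in cells of 8000 UMIs or more lie at 1.07 for the nuclear and 0.634 and 0.632 for the mitochondrially encoded members.

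Ndufa4, the nuclear member with the lowest ratio in macrophages, was also uneven across cell types. It was at 73.4 and 79.5 CPM in Lyz2-icre and control migratory dendritic cells, 120.5 and 162 CPM in macrophages and 129 and 188 CPM in cDC2. It was at 356 and 375 CPM in NK cells, 354 and 353 CPM in CD8 T cells, 446 and 535 CPM in gamma-delta T cells and 534 and 332 CPM in cDC1, each pair in Lyz2-icre and control cells. AA467197, not a member, is the mouse gene (also named Nmes1) of a paralog of Ndufa4 whose human counterpart is known to take the place of NDUFA4 in complex IV in inflammation. It was looked up after the values of Ndufa4 were seen. It was high in the dendritic cells and macrophages where Ndufa4 was low, with 1204 and 902 CPM in migratory dendritic cells, 1167 and 798 CPM in cDC2 and 834 and 633 CPM in macrophages, against 85.6 and 91.3 CPM in cDC1 and 246 and 195 CPM in NK cells, again in Lyz2-icre and control cells. Monocytes were high in both, with 276 and 286 CPM for Ndufa4 and 1199 and 1125 CPM for AA467197 in Lyz2-icre and control cells. The other T cell gates did not share one order of these genes, with AA467197 at 388 and 243 CPM in Lyz2-icre and control CD8 T cells and at 269 and 505 CPM, above Ndufa4 in the control library, in CD4 T cells. The C1qa levels given above are limited by the gates, and the part of free macrophage RNA in the values of the lymphocyte gates was not tested.

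**Figure D5:**
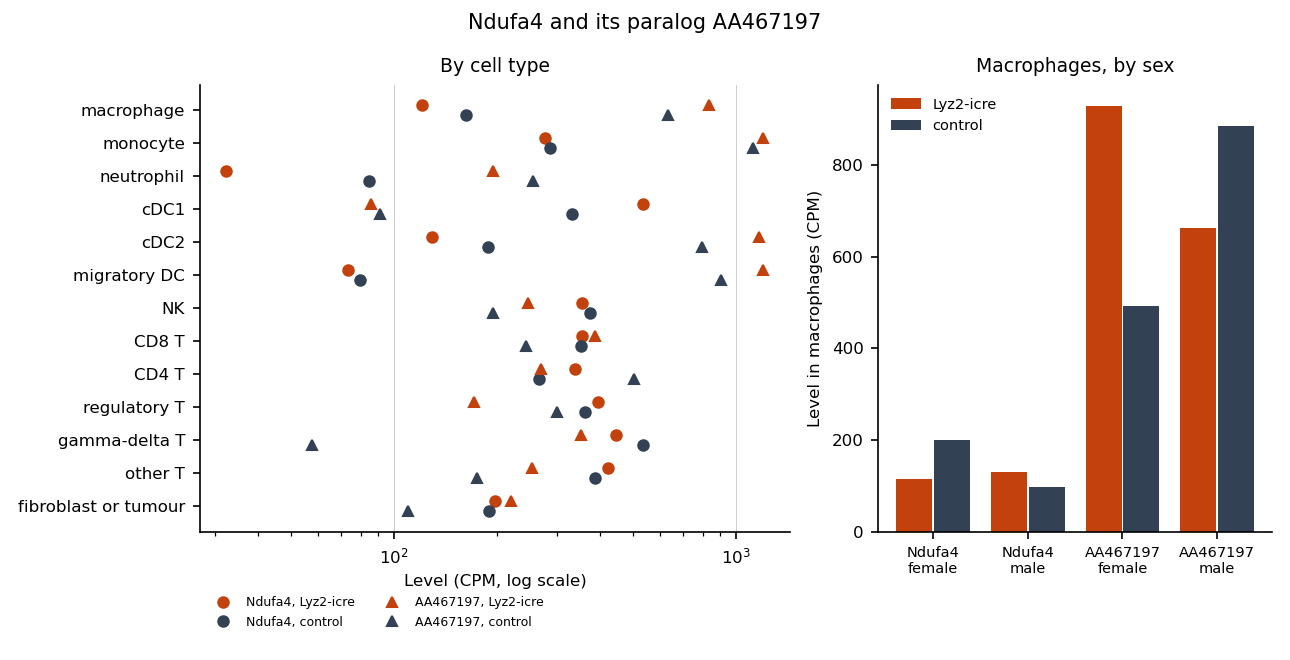
Left, level of Ndufa4 (circles) and of its paralog AA467197 (triangles) in CPM (x axis, log scale) in 13 cell types (y axis), orange SPP1fl/fl-Lyz2-icre and dark SPP1fl/fl control. Right, level in macrophages (CPM, bars from 0) of both genes in female and male cells of each library, with no error bars since each bar is part of 1 library. Ndufa4 lies left of AA467197 in macrophages, monocytes, neutrophils, cDC2 and migratory dendritic cells of both libraries, and control female macrophages have the highest Ndufa4 and the lowest AA467197 bars.

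Each library held cells of female mice (Xist found, no Y-linked gene found) and of male mice (the reverse), 5895 female and 1908 male macrophages in the Lyz2-icre and 3401 and 1372 in the control library, so neither library came from a single mouse. The sums had the same direction in both sexes. The nuclear ratio was 1.06 (1.05 to 1.06) in female and 1.08 (1.07 to 1.08) in male macrophages. The mitochondrial ratio was 0.592 (0.589 to 0.595) in female and 0.723 (0.717 to 0.729) in male macrophages. Of 79 nuclear members, 48 were higher and 14 lower in both sexes and 17 went opposite ways (21.5%), where 24.3% of all 7605 genes were higher in both sexes and 49.2% went opposite ways. All 11 mitochondrially encoded members that passed had the same direction in both. Ndufa4 did not. In female macrophages it was at 116 and 201 CPM in the Lyz2-icre and control libraries, a ratio of 0.577 (0.556 to 0.598), and in male macrophages at 129.6 and 98.0 CPM, a ratio of 1.32 (1.24 to 1.41). AA467197 went the other way in each sex, with 929.8 and 493 CPM in female (1.89, 1.85 to 1.92) and 664 and 887 CPM in male macrophages (0.749, 0.730 to 0.768). Ndufa4l2 was at 6.37 and 0.666 CPM in female and 0.949 and 2.51 CPM in male macrophages of the Lyz2-icre and control libraries. Cox4i2, Cox7b and Ndufv3 were higher in the Lyz2-icre library in both sexes, Cox7b with 306 and 223 CPM in female and 325 and 261 CPM in male macrophages. The lower Ndufa4 of the Lyz2-icre library was thus found in female and not in male cells, and sex and mouse cannot be told apart here. Both genes also varied with macrophage state. For example, Ndufa4 was at 108 and 121 CPM in Il1b-high and at 141 and 248 CPM in Il1b-free macrophages of the Lyz2-icre and control libraries. AA467197 was at 1017 and 856 CPM in the Il1b-high and at 607 and 289 CPM in the Il1b-free ones. The part of state in the values by sex was not tested.

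The other genes of the pathway, taken by list, differed little in macrophages apart from the mitochondrial ribosomal RNAs. The counts below stand beside 46.2% of all genes higher and 53.8% lower in macrophages. Of the 4 genes of complex II, which are all nuclear, 3 were higher and 1 lower, with a median log2 ratio of 0.07, and none past the log2 limit of 0.32. Sdhb, its iron-sulphur subunit, was at 174 CPM in Lyz2-icre and 168 CPM in control cells. Of 78 mitochondrial ribosomal protein genes, 75 passed, 47 were higher and 28 lower (median 0.06). Of 27 import genes (Tomm and Timm), 24 passed, 16 were higher and 8 lower (median 0.07). Of 17 assembly factors of complexes III and IV, 13 passed, 7 were higher and 6 lower (median 0.02). Of 15 genes that copy, transcribe or regulate mitochondrial DNA, 9 passed, 3 were higher and 6 lower (median -0.06), none past the limit. Tfam, which packages and starts transcription of mitochondrial DNA, was at 20.4 CPM in Lyz2-icre and 19.8 CPM in control macrophages, and Lrpprc, which stabilises its messenger RNAs, at 21.7 and 24.8 CPM. Ppargc1a, the coactivator of mitochondrial biogenesis, had no UMI in macrophages of either library. The mitochondrial ribosomal RNAs were the one list with genes past the limit in macrophages, mt-Rnr1 with 818 and 2405 CPM (log2 ratio -1.55) and mt-Rnr2 with 1534 and 5670.1 CPM (-1.88) in Lyz2-icre and control cells. In CD8 T cells, where 43.9% of all genes were higher, 12.4% past 0.32 and 20.6% past -0.32, complex II had 1 higher and 3 lower (1 lower past the limit). The mitochondrial ribosome had 45 higher and 29 lower there (9 and 5 past the limit), import 15 and 9 (5 and 1), the assembly factors 8 and 6 (5 and 0) and the mitochondrial DNA list 3 and 6 (1 and 2). In NK cells, where 41.8% of all genes were higher, 9.89% past 0.32 and 21.0% past -0.32, complex II had 0 higher and 4 lower (2 lower past the limit). The mitochondrial ribosome had 38 and 37 (6 and 9 past the limit), import 11 and 13 (3 and 1), the assembly factors 6 and 8 (2 and 4) and the mitochondrial DNA list 2 and 7 (0 and 3). The ribosomal RNAs were lower there too, with median log2 ratios of -1.54 in CD8 T and -1.53 in NK cells.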

How the data were processed

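The authors deposited 1 filtered feature-barcode matrix per genotype with raw UMI counts per gene and cell, made with Cell Ranger 8.0.1 per the file headers. The submitters' processing notes also name bcl2fastq 5.0.1 and the build mm10; the annotation release is not given in the sources used here. Cells were kept from 300 genes and 500 UMIs upward if no more than 15% of their UMIs were mitochondrially encoded. Marker gates put each cell in one of 16 classes; cells meeting gates of several classes (845 in the Lyz2-icre and 666 in the control library) and ungated cells (932 and 572) were set aside, and no doublet caller was run. For each class, UMIs were summed over its cells and expressed as CPM of all its UMIs. Ratios are Lyz2-icre over control with exact conditional binomial 95% intervals, which cover counting error only; log2 ratios add 5 CPM to both values. Genes with a mean of at least 10 CPM were compared, and those past a log2 ratio of 0.32 either way (25% higher or 20% lower) were counted beside the same count over all genes. No p-value is given, since each genotype is 1 library; the counts were therefore not fitted with a count model.

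Genes were named by role (the highest of each complex, every mitochondrially encoded one, the tissue isoforms) and by size of the log2 ratio (8 highest and 8 lowest nuclear ones in macrophages at 20 CPM or more, 2 and 2 in other types with at least 100 cells per library at 50 CPM and 30 UMIs or more). One gene that this rule names is not reported here. Genes and lists were chosen with earlier results of these data known. Shared stretches of 91 bases were counted over GENCODE vM21 transcripts (GRCm38), and motifs over RefSeq promoters (GRCm38.p6). Alternatives in cell filter, denominator, scaling, depth, gates, sex, added CPM, low filter and fold were computed. Python 3.11.15, numpy 2.4.6, pandas 2.3.3, scipy 1.17.1, scikit-learn 1.9.0, leidenalg 0.10.2 and matplotlib 3.10.9 were used, and the ratios were tested on simulated data. The libraries held 98256831 UMIs in the Lyz2-icre and 88047097 in the control cells kept.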

Additional observations from a re-analysis of the deposited data

Results flagged for a closer look

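Ndufa4 differed in direction between the sexes of macrophages: the ratio of Lyz2-icre over control was 0.577 in female and 1.32 in male cells. Ndufa4l2 did the same, at 9.57 in female and 0.379 in male cells, on few UMIs. There is 1 library per genotype, and both sexes were read from cells of that same library, so these differences were not tested.

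In neutrophils the summed ratio of the mitochondrially encoded members was 1.06, while it was below 1 in each of the other cell types. This ratio rests on 240 UMIs in Lyz2-icre and 1736 UMIs in control cells, the counting interval of 0.919 to 1.21 holds 1, and the difference from the other types was not tested. The median neutrophil went the other way, with a share of 0.0603% in Lyz2-icre and 0.112% in control cells.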

How the results depend on the processing

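No paired analysis was possible because each genotype is 1 library, and leaving out a replicate would leave no comparison. The nuclear ratio in macrophages, 1.07, became 1.069 with no cell filter and with no limit on the mitochondrial share, 1.057 with the mitochondrially encoded UMIs and 1.062 with these and ribosomal protein UMIs out of the denominator, 1.078 with median-of-ratios scaling, 1.07 as the mean of per-cell CPM, 1.076 in cells drawn down to 2000 UMIs, 1.072 in cells of 4000 to 16000 UMIs, and 1.056 in female and 1.079 in male cells. The mitochondrially encoded ratio, 0.635, became 0.606 and 0.610 without the filter and the limit, 0.648 with a stricter filter (500 genes, 1000 UMIs, 10%), 0.629 and 0.632 with the smaller denominators, 0.642 with median-of-ratios scaling, 0.605 drawn down, and 0.592 in female and 0.723 in male cells. The direction of both held throughout, and the cause of these shifts was not tested. Of nuclear members past a log2 ratio of 0.32 either way, 2 were higher and 1 lower; at a fold of 1.5 there were 0 and 0, with no filter on low members 5 in all (4 higher), and in male cells 4 higher and 0 lower. Of 10 cell types with at least 50 cells per library, 10 had a nuclear ratio above 1, and 9 or 10 under the alternatives. The number with a mitochondrially encoded ratio above 1 was 1, the neutrophils, and 0 with median-of-ratios scaling and with types from Leiden clusters. It was also 0 in cells drawn down and in cells of 4000 to 16000 UMIs, where neutrophils drop out and 9 types are left, so these 2 settings say nothing about them. Over the alternatives other than the fold of 1.5, 255 of 256 values of the 16 named macrophage nuclear members kept their sign. The exception was Ndufa4, whose log2 ratio was 0.39 in male cells. These members were picked as extremes in the same cells, so a kept sign says little. Of 665 values of members, sums and medians, 464 stayed within the counting interval of the main value (quartiles for medians). Another 200 lay outside it and 1 was reversed. Over all genes the median log2 ratio was -0.05 in female and 0.04 in male cells. Depth limits the types with few cells, where intervals of single members are wide.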
